A study of Mus musculus with 2 samples.

Results

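Lysosomal genes were examined in cultured Th2 cells, the T helper type that makes interleukin-4, from mice that lack Ecm1 (Ecm1 KO) and from wild-type mice (WT). The set comprised proteases, sugar- and lipid-cleaving hydrolases, activator proteins, membrane proteins and 1 regulator of the lysosome. It was defined by gene symbol as 34 genes. Of these, 33 were named by 72 probe sets that the platform annotation assigns to a single gene, out of 18193 genes so named. No signal of Cd63 was analysed here. Each gene was read from its brightest probe set, by the mean of the log2 signals. All 33 genes reached the floor, which is the median signal of an array, on both arrays, so none entered through 1 group only.

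The KO group was 1 array of Th2 cells from Ecm1 KO mice and the WT group 1 array of Th2 cells from wild-type mice. The labels give C57BL/6 as the strain of both and describe the animals as female and 6 weeks old. Splenic CD4 cells of both groups were selected with an anti-CD4 antibody and kept for 4 days with anti-CD3, anti-CD28, interleukin-4, anti-IFN-γ and anti-IL-12. The number of animals behind an array, the allele and the part of Ecm1 that was removed are not stated in the labels, and the sample descriptions name liver where titles and source names say Th2 cell. With 1 array in each group there are no replicates and no test could be run, so every difference describes these 2 arrays only.

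The targeted gene matched the labels, with an Ecm1 signal of 19.3 in the KO, where the floor was 65.5, and 29114.7 in WT. The T cell markers Cd3d, Cd3e and Cd3g were well above the floor on both arrays, and all 6 hepatocyte markers named on the array were below it on both. The arrays differed in ways that the genotype label does not describe. Eif2s3y, a gene of the Y chromosome, read 2214.4 in the KO and 25.0 in WT, and Xist, a marker of the inactive X chromosome, was in its 3 probe sets at 38.7% to 48.0% of WT, while the labels describe female mice. Both genes were chosen after their values were seen. Markers of macrophages and monocytes and of B-lineage cells were higher in the KO, and those of T cells lower, with values given below.

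Lysosomes are acidic organelles in which proteins, sugars and lipids are broken down. Most of their enzymes are made in the endoplasmic reticulum, tagged with mannose-6-phosphate and delivered through receptors, while a proton pump keeps the lumen acidic. Many of their genes carry a short E-box motif near the start site that is bound by Tfeb and its relatives. In cytotoxic T cells related organelles store granzymes, and in B cells, dendritic cells and macrophages lysosomal proteases trim antigens and the invariant chain for presentation.

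Promoter windows are shown for the members at least 2-fold higher in the KO that have an entry, Gla, Gusb and Ctsz, and for Lamp1 and Ctsa, which were chosen for their E-boxes after the values were seen. They are RefSeq windows of 300 bases on GRCm38.p6, from 250 bases before the start site to 50 after it, so that the start site is base 251, written in the direction of the gene. Capitals mark CACGTG, which reads the same on both strands.
Gla, chrX:134600956-134601255, minus strand: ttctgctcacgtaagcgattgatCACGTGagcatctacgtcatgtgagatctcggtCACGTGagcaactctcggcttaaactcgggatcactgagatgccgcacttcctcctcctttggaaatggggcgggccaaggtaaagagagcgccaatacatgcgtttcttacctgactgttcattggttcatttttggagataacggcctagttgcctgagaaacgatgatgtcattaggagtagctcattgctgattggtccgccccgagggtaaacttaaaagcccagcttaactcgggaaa
Gusb, chr5:130003000-130003299, minus strand: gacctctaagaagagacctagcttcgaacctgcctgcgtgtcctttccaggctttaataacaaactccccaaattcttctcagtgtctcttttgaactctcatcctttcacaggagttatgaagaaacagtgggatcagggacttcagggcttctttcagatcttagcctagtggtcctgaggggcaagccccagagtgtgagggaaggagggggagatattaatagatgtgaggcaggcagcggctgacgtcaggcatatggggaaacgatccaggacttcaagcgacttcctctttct
Ctsz, chr2:174438990-174439289, minus strand: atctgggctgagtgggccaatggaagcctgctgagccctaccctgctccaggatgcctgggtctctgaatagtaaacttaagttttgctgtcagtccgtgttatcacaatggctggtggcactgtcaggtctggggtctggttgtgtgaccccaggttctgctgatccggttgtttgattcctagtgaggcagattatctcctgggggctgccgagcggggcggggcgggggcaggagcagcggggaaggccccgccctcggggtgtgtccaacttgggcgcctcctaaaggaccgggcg
Lamp1, chr8:13158911-13159210, plus strand: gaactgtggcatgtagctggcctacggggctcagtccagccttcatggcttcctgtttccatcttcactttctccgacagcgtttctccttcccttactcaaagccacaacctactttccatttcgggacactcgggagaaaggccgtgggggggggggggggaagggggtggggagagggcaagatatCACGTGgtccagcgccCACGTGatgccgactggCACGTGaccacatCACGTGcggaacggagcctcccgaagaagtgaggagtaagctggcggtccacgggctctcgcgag
Ctsa, chr2:164833523-164833822, plus strand: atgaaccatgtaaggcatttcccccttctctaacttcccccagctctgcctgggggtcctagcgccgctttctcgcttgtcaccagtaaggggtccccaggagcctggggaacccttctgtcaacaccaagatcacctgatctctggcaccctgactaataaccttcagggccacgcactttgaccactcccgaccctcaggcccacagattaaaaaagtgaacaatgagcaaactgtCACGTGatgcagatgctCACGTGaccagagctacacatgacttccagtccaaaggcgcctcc

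Lamp1 holds 4 E-boxes, beginning at bases 190, 206, 223 and 236 of its window, all shortly before the start site. Gla holds 2, at bases 24 and 57, and Ctsa 2, at bases 239 and 256 on either side of the start site. Another window of Ctsa, not shown, held no match. No match was found in the windows of Gusb and Ctsz, which says only that these letters are not in these windows. Of the 30 members with a window, Cd63 among them, 9 held the motif in at least 1 (30.0%), against 8.09% of all 27025 genes with a window. The other genes with a match were Ctsd, Ctsl, Gaa, Glb1, Lgmn and Mcoln1. The longer form TCACGTG, searched on both strands and containing the first motif, was in a window of 8 members (26.7%), against 4.29% of all genes. Members with CACGTG had a median log2 difference of 0.28 over 9 genes, and measured members with a window but no match had 0.18 over 20 genes. For TCACGTG the 2 medians were the same to 2 digits, 0.24 over 8 genes with it and 0.24 over 21 without.

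In the KO 4 lysosomal genes had signals at least 2-fold higher than in WT and none was at least 2-fold lower. Differences are given as log2 signal, KO minus WT, centred on the median over the 20834 probe sets that reached the floor on each array, which shifts the deposited values by 0.10. The 4 genes were the proteases Ctsh and Ctsz and the glycosidases Gusb and Gla, which made 12.1% of 33, against a background of 7.15% of 10144 genes measured on both arrays. None of the 33 was at least 2-fold lower, against a background of 4.45%. In the values as deposited, without centring, the backgrounds were 5.79% higher and 6.02% lower, and 3 members were at least 2-fold higher and none lower. The median of the 33 genes was 0.24, with quartiles of -0.08 and 0.66, and the median of all measured genes was 0.04, with quartiles of -0.33 and 0.43. Above 0 lay 24 of the 33, against 53.1% of all genes. After quantile normalization or loess 19 of the 33 did so. The share of all genes above 0 was not counted under those settings. Their median was 0.00 after quantile normalization and 0.03 after loess. In bulk cells, a change in the share of a cell type and a change in RNA per cell cannot be told apart.

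**Figure D1:**
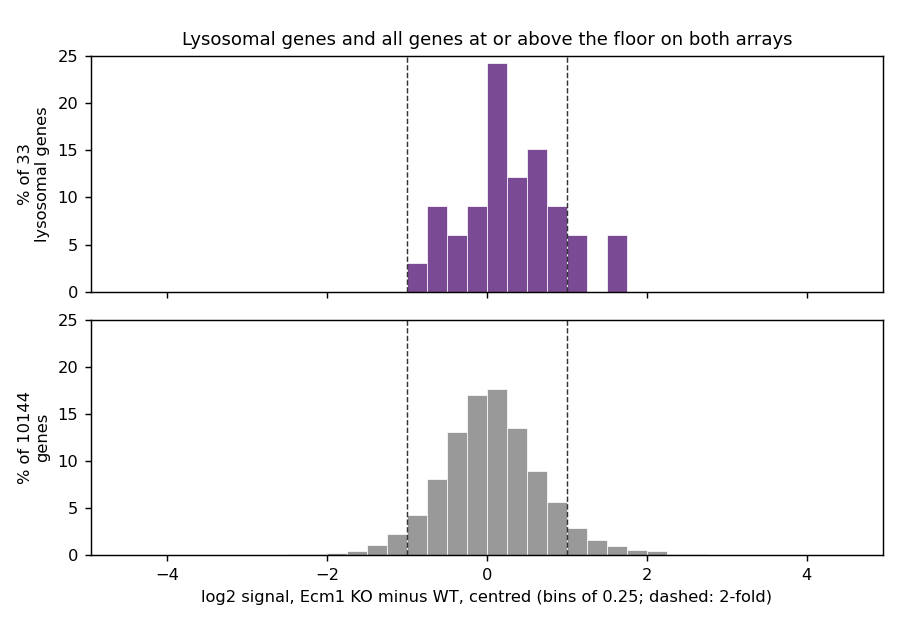
Share of genes in each bin of the centred log2 difference, Ecm1 KO minus WT, for the 33 lysosomal genes (top, percent of 33) and for all 10144 genes that reached the floor on each array (bottom, percent of 10144). The dashed lines mark 2-fold: 4 lysosomal genes lie beyond the right line and none beyond the left.

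The only internal measure of error compared the brightest and second brightest measured probe sets of 1 gene. The SD between probe sets is the SD of the gap between their log2 differences, divided by the square root of 2. This SD was 0.36 on the log2 scale over 4657 genes with at least 2 measured probe sets, and it leaves out animal, culture and array error. Higher by more than this SD were 14 members, against 28.8% of all genes, and lower by more than it were 6, against 23.5%. The remaining 13 lay within it. A stricter count asked for at least 2 probe sets of a gene past 2-fold in the same direction. Ctsh, Ctsz, Gusb and Grn met it on the higher side, 4 of the 19 members with at least 2 measured probe sets, against 5.00% of 4657 genes. No member met it on the lower side, against 2.58%. Without probe sets of the _x_at and _s_at kind, which can bind several transcripts, only Gusb still met it. Fewer than 19 members then kept at least 2 measured probe sets, and the share over all genes was not counted for this setting.

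**Figure D2:**
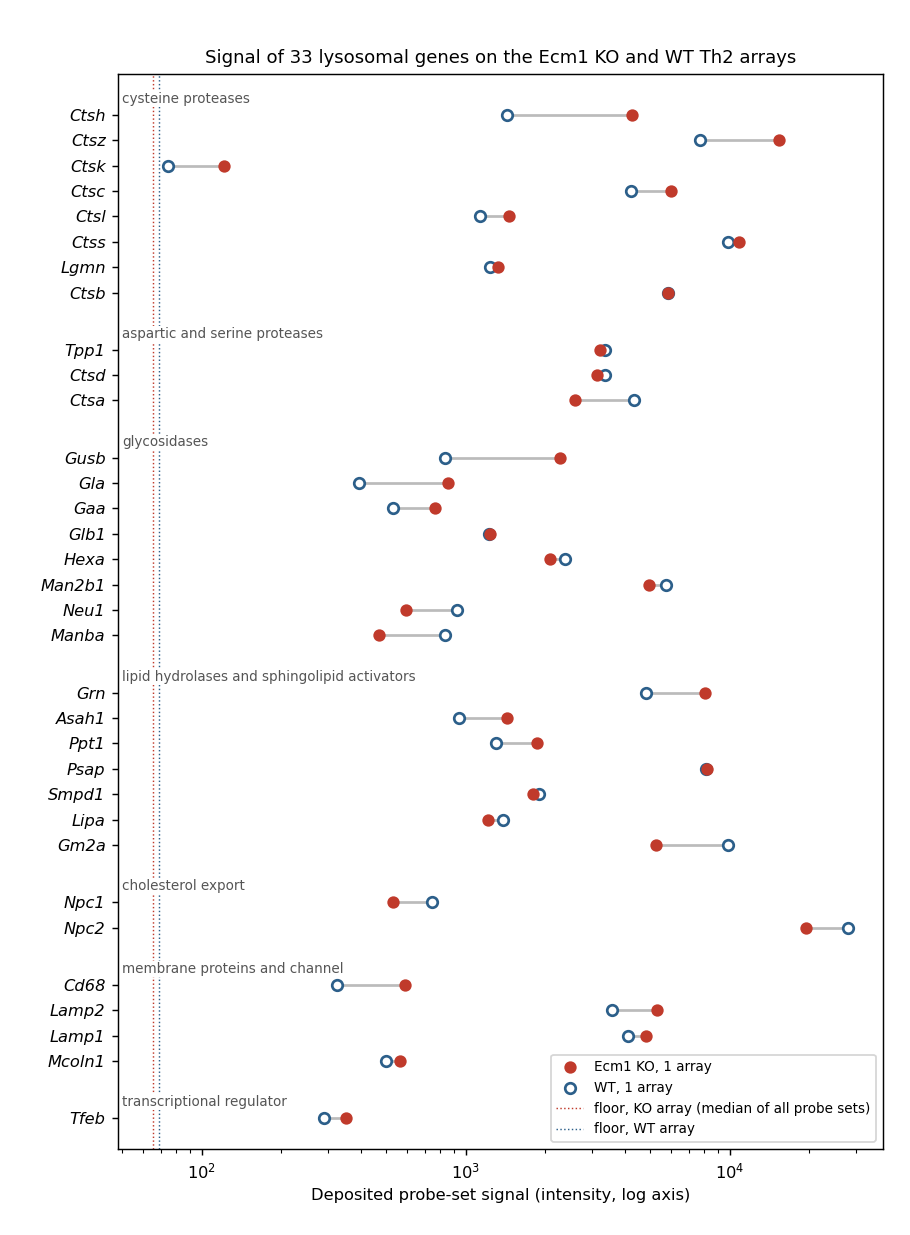
Deposited signal (log axis) of the brightest probe set of each of the 33 lysosomal genes on the Ecm1 KO array (filled) and the WT array (open), grouped by role and joined by a line. Dotted lines mark the floor of each array, 65.5 for the KO and 69.2 for WT. Ctsh, Gusb, Gla and Ctsz show the longest lines with the KO point to the right.

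The 8 cysteine proteases all lay above 0, with a median of 0.54. With probe sets averaged the median was 0.24, with 6 of 7 above 0, and by the second brightest probe sets it was 0.97 over 4 genes. Ctsh, an aminopeptidase of the lysosome, had signals of 4258.9 in the KO and 1436.2 in WT, 3.18-fold higher after centring (log2 1.67). Its other probe set read 2243.3 in the KO and 698.8 in WT, a log2 difference of 1.79. Both probe sets of Ctsh thus gave nearly the same size of difference. Ctsz, a carboxypeptidase, read 15367.1 in the KO and 7693.5 in WT, 2.15-fold higher after centring (1.10). Its other 2 probe sets were at 1.69 and 1.73. The brightest probe set of Ctsz was therefore the one with the smallest difference, and it was under 2-fold in the values as deposited, after quantile normalization (0.88) and after loess (0.97).

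Further cysteine proteases were higher by less than 2-fold. Ctsc, the dipeptidyl peptidase that activates granzymes, read 5966.7 in the KO and 4208.8 in WT (0.61), and its dimmer probe set 181.1 in the KO and 163.2 in WT (0.25). Ctsl, which cuts the invariant chain in thymic epithelium, read 1463.0 in the KO and 1127.6 in WT (0.48). Ctss, which does so in B cells and dendritic cells, read 10866.8 in the KO and 9875.9 in WT (0.24). These differences were small beside those of Ctsh. Lgmn, the asparagine-specific protease that activates other cathepsins, read 1325.9 in the KO and 1235.5 in WT (0.20). Ctsb, an abundant endopeptidase in many cells, read 5843.2 in the KO and 5809.0 in WT (0.11), while its other 3 measured probe sets ran from -0.59 to 0.07. Ctsb lay below 0 after quantile normalization, after loess and with probe sets averaged (-0.23), the only cysteine protease to do so under those settings.

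Ctsk, the collagen-cleaving protease of osteoclasts, read 122.1 in the KO and 74.8 in WT (0.81), its WT signal lying just above the floor of 69.2. A floor at the 70th percentile removed it on both arrays. Ctsk and Ctss are neighbours on the chromosome and lie close to Ecm1. In RefSeq's GRCm38.p6 gene order, 5 protein-coding genes separate Ctss from Ecm1. These were looked at after the values were seen. Of them, Adamtsl4, next to Ecm1, read 1907.1 in the KO and 4495.2 in WT (-1.13). Ensa was at -0.35, Golph3l at 0.15 and Mcl1 at 0.24, and Hormad1 was below the floor on both arrays. On this side of the targeted gene the differences ran in both directions, and the genes on its other side were not looked at.

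Among the other proteases, the signals were close on the 2 arrays for Ctsd and Tpp1 and lower in the KO for Ctsa. Ctsd, the main aspartic protease, read 3151.0 in the KO and 3377.1 in WT (0.00). Tpp1, which removes tripeptides from protein ends, read 3231.1 in the KO and 3376.3 in WT (0.04), and its other probe set was at -0.35. Ctsa, the carboxypeptidase that also protects the sialidase Neu1 and the galactosidase Glb1, read 2598.0 in the KO and 4340.6 in WT, 1.56-fold lower after centring (-0.64). Its other probe set lay near the floor, with 86.3 in the KO and 73.0 in WT, and had the opposite sign (0.34).

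The 8 glycosidases split evenly, with 4 above 0 and 4 below, and a median of 0.02. With no floor the median was 0.00, and under every other alternative it lay below 0, down to -0.09. Gusb, the β-glucuronidase of glycosaminoglycan breakdown, read 2280.8 in the KO and 833.1 in WT, 2.94-fold higher after centring (1.56). Its other probe set read 727.9 in the KO and 285.6 in WT (1.45). Gusb was past 2-fold under each of the 8 alternative settings, as was Ctsh. Gla, the α-galactosidase that is deficient in Fabry disease, read 857.6 in the KO and 394.2 in WT, 2.34-fold higher after centring (1.22), and its other 2 probe sets were below the floor on both arrays. Gla is 1 of 2 members on the X chromosome, and the part of the Eif2s3y and Xist difference in its value was not tested. Gaa, which degrades glycogen, read 763.9 in the KO and 529.2 in WT (0.63), but its other probe set read 520.8 in the KO and 538.5 in WT (0.05).

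The remaining glycosidases were near 0 or lower in the KO. Glb1 read 1236.1 in the KO and 1222.0 in WT (0.12). Hexa, the α subunit of β-hexosaminidase, read 2089.5 in the KO and 2381.7 in WT (-0.09). Both lay within the spread between probe sets. Man2b1, the α-mannosidase, read 4959.5 in the KO and 5747.2 in WT (-0.11), whereas its dimmer probe set read 257.5 in the KO and 589.3 in WT (-1.09). Manba, the β-mannosidase, read 467.6 in the KO and 832.1 in WT, 1.66-fold lower after centring (-0.73), the lowest value among the glycosidases. Neu1, the sialidase, read 594.6 in the KO and 923.6 in WT (-0.53), and its second measured probe set was at -0.20. Of the complex that Ctsa forms with Neu1 and Glb1, the first 2 were thus lower in the KO by their brightest probe sets and Glb1 was not.

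**Figure D3:**
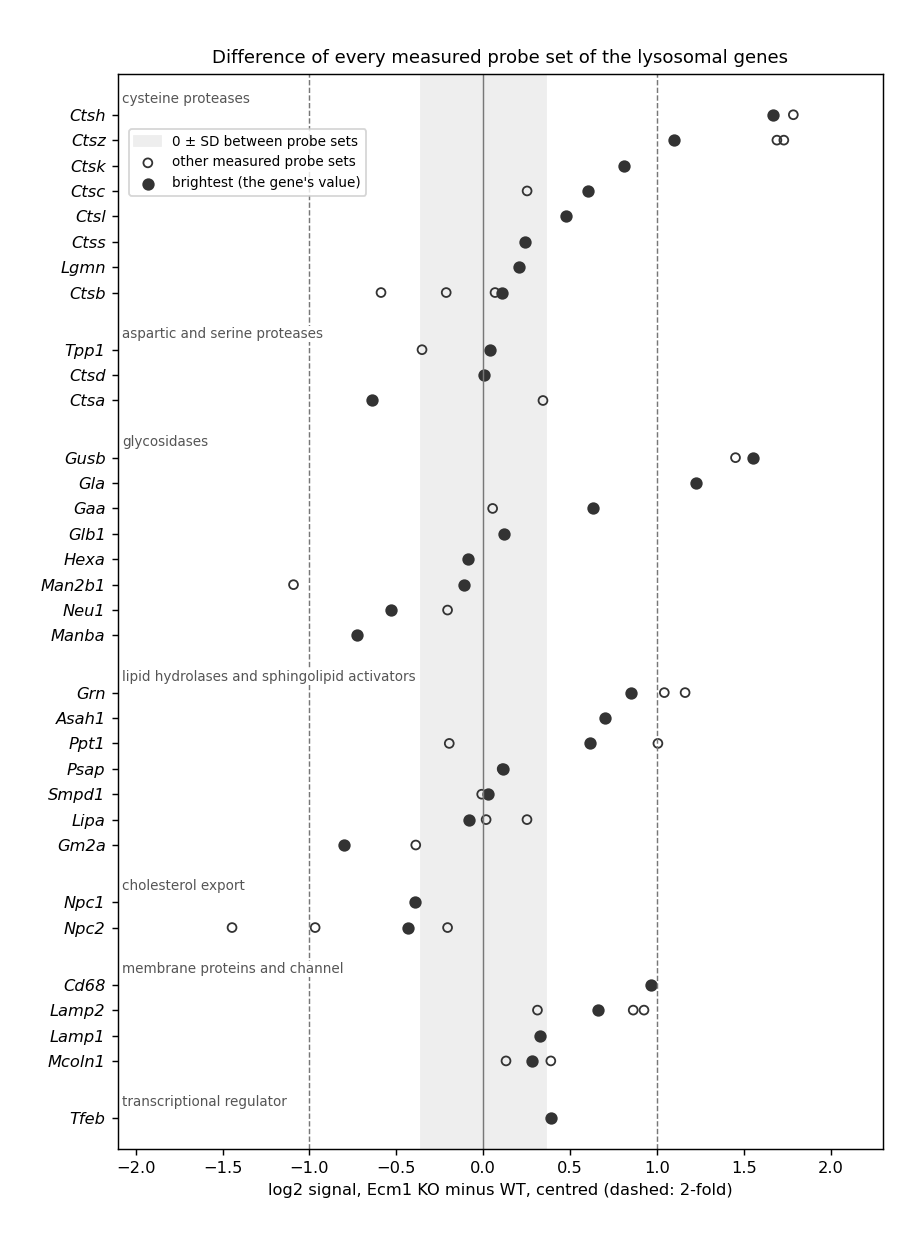
Centred log2 difference, Ecm1 KO minus WT, of every probe set of the 33 genes that reached the floor on each array, with the brightest one filled and the others open. The grey band is 0 ± 0.36, the SD between probe sets of the same gene over 4657 genes, and dashed lines mark 2-fold. All probe sets of Ctsh, Ctsz and Gusb lie right of 2-fold, while those of Ctsa, Ppt1 and Ctsb fall on both sides of 0.

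The group of 7 genes that held the enzymes and activators of lipid breakdown, and also Grn, ranged widely, from 0.85 for Grn to -0.80 for Gm2a. Grn encodes progranulin, a secreted and lysosomal precursor of granulins. It read 8069.4 in the KO and 4806.9 in WT, 1.80-fold higher after centring (0.85), and its other 2 probe sets were past 2-fold at 1.04 and 1.16. Asah1, the acid ceramidase, read 1434.8 in the KO and 946.9 in WT (0.70). Ppt1, which removes palmitate from proteins, read 1859.6 in the KO and 1303.3 in WT (0.62), and its next probe set was at 1.01 and the third measured one at -0.19. Grn was thus higher in each of its probe sets and Ppt1 was not.

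Gm2a, the activator protein that presents ganglioside to the hexosaminidase of Hexa, was the lowest of the 33. It read 5267.4 in the KO and 9853.6 in WT, 1.74-fold lower after centring (-0.80), and its second measured probe set was at -0.39. As the mean of its 3 probe sets, which takes in 1 below the floor on both arrays, Gm2a was past 2-fold at -1.11. Psap, the precursor of the saposin activators, read 8202.5 in the KO and 8121.8 in WT (0.12), with 0.11 in its other probe set. Smpd1, the acid sphingomyelinase, read 1798.7 in the KO and 1896.3 in WT (0.03). Lipa, which cleaves cholesteryl esters, read 1214.5 in the KO and 1378.2 in WT (-0.08), and its other probe sets were at 0.25 and 0.02. These 3 genes lay within the spread between probe sets.

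Both proteins that pass cholesterol out of the lysosome had lower signals in the KO. Npc2, the soluble carrier, read 19342.5 in the KO and 27979.2 in WT (-0.43), and its other 3 probe sets ran from -1.45 to -0.20. Npc1, the membrane protein that receives cholesterol from it, read 529.5 in the KO and 745.1 in WT, 1.31-fold lower after centring (-0.39). All 5 measured probe sets of the pair were below 0, although 1 of those of Npc2 lay within the spread between probe sets.

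The 4 membrane proteins named on the array were above 0 in the KO, with a median of 0.50, also under every alternative run. Cd68, the macrosialin of macrophages, read 589.9 in the KO and 324.4 in WT, 1.95-fold higher after centring (0.97) and just past 2-fold after loess (1.01). Lamp2, a main glycoprotein of the lysosomal membrane, read 5278.0 in the KO and 3578.4 in WT (0.66), and its other 3 probe sets ran from 0.31 to 0.93. Lamp2 is the other member on the X chromosome. Lamp1, its relative with the 4 E-boxes shown above, read 4792.0 in the KO and 4099.9 in WT (0.33). Mcoln1, the calcium channel of the lysosome, read 564.9 in the KO and 499.1 in WT (0.28), with 0.13 and 0.39 in its other probe sets. Tfeb, the transcription factor that binds the E-box of lysosomal genes, read 353.3 in the KO and 289.9 in WT (0.39), which is 1.31-fold higher.

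Genes around this set did not share a direction. Over all 10144 measured genes 7.15% were at least 2-fold higher and 4.45% lower, the background for each list below. Of 28 other lysosomal hydrolases measured on both arrays, 1 was at least 2-fold higher in the KO and 2 were at least 2-fold lower, with a median of -0.03, or 0.22 by the second brightest probe sets. The lower ones were Ctsw, a cathepsin of cytotoxic lymphocytes, with 385.8 in the KO and 2052.5 in WT (-2.31), and Smpdl3a, with 523.1 in the KO and 2641.2 in WT (-2.23). The higher one was Plbd1, with 392.0 in the KO and 171.8 in WT (1.29), and Acp5, the tartrate-resistant phosphatase, was at -0.94. Ctsf, named after its values were seen, read 15.3 in the KO, below the floor, and 341.8 in WT, which makes it at least 4.86-fold lower against the floor. The median of 29 other lysosomal membrane proteins was -0.19, or -0.43 by the second brightest probe sets. Of them 1 was at least 2-fold higher and 2 were at least 2-fold lower. These were the tetraspanin Cd9 (1.36), the two-pore channel Tpcn1 (-1.23) and Scarb2, the receptor that carries glucocerebrosidase to lysosomes (-1.16, and -0.81 in its other probe set), and the metal transporter Slc11a1 was at 0.91.

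The machinery that acidifies and supplies lysosomes was mostly within 2-fold, as were 88.4% of all measured genes. Of 18 vacuolar ATPase subunits, 1 was at least 2-fold higher, Atp6v0a1, with 521.6 in the KO and 207.2 in WT (1.43, and 2.18 in its other measured probe set). None was at least 2-fold lower, and the median was 0.15, or 0.36 by the second brightest probe sets. Atp6v1g2 was at -0.87, Atp6ap2 at 0.84 and Atp6v0d2 at 0.55. Of 11 genes of mannose-6-phosphate and sortilin delivery, 1 was at least 2-fold higher, the adaptor Gga2 (1.21), and none was at least 2-fold lower. Their median was 0.16, or 0.56 by the second brightest probe sets. Gnptab, the enzyme that adds the mannose-6-phosphate tag, was at 0.83, its receptor Igf2r at 0.47 and the adaptor Gga1 at -0.58.

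Of 15 relatives of Tfeb and genes of their nutrient control, 1 was at least 2-fold higher, Mitf, with 203.6 in the KO and 95.5 in WT, which is 2.29-fold after centring. None of the 15 was at least 2-fold lower, and their median was 0.20. The backgrounds over all measured genes were 7.15% higher and 4.45% lower. Flcn, a repressor of this pathway, was at -0.74, Rraga at 0.61 and Fnip2 at 0.58. Among 20 autophagy genes 1 was at least 2-fold higher and none lower, with a median of 0.13, which lay below 0 with probe sets averaged or without _x_at and _s_at probe sets. The higher gene was Wipi1 (1.31), whose other measured probe sets were at -0.15 and 0.34. Atg5 was at 0.77, with other probe sets from -0.21 to 0.71, and Ulk1 at -0.73. Wipi2 was at -0.68, but its other measured probe sets had the opposite sign, from 0.15 to 0.28.

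Most protease inhibitors and most genes of lysosome fusion had lower signals in the KO. Over all measured genes 7.15% were at least 2-fold higher and 4.45% lower. Of 8 cystatin and serpin genes, 1 was at least 2-fold lower and none higher, with a median of -0.62, or -0.06 by the second brightest probe sets. Serpinb9, an inhibitor of granzyme B, read 413.4 in the KO and 1006.8 in WT (-1.18, and -0.51 in its other measured probe set), Serpinb6a was at -0.82, Serpinb6b at -0.81 and Cst6 at -0.74. Of 17 genes of lysosome trafficking, fusion and exocytosis, 1 was at least 2-fold lower and none higher, with a median of -0.19, or 0.09 by the second brightest probe sets. Lyst, which controls lysosome size, read 1607.6 in the KO and 5452.6 in WT (-1.66). Rab27a, needed for granule release, was at -0.62 and in its other measured probe set at -0.12, Vps39 at -0.59 and Vamp7 at 0.57.

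**Figure D4:**
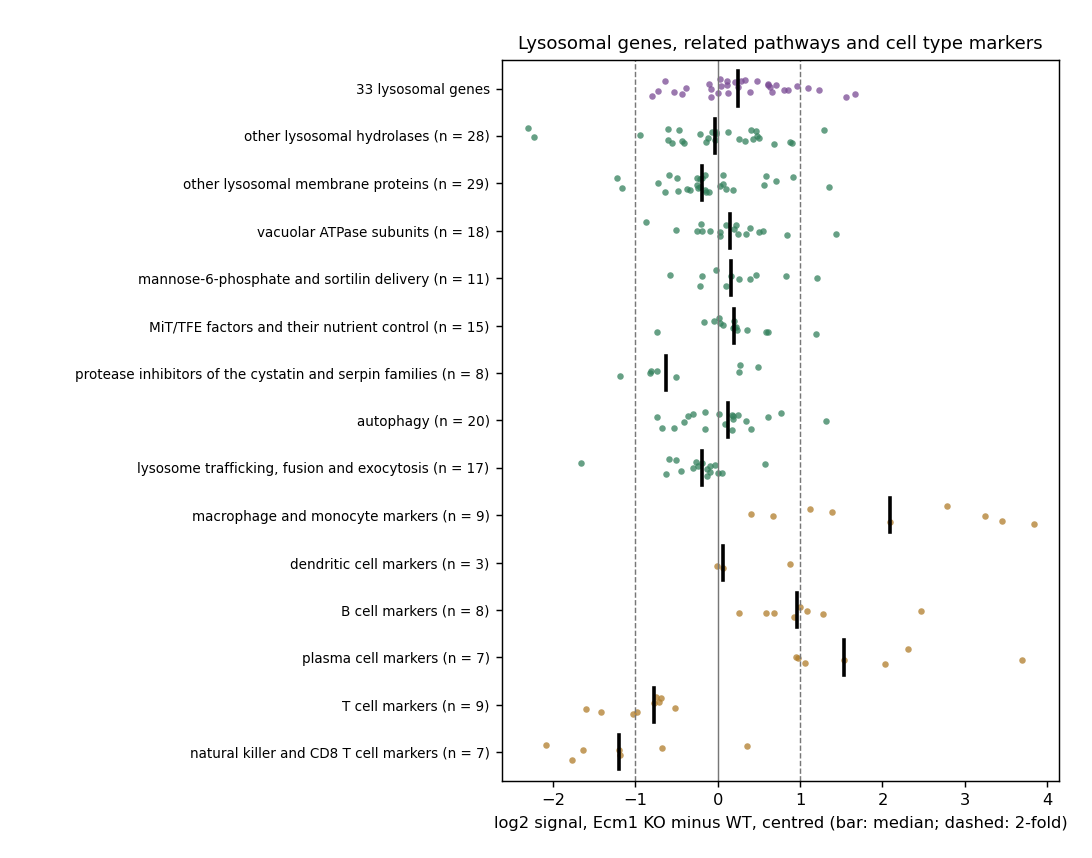
Centred log2 difference, Ecm1 KO minus WT, of each gene that reached the floor on each array, for the 33 lysosomal genes (purple), related pathways (green) and cell type markers with at least 3 such genes (brown); vertical jitter carries no meaning. Black bars are medians: 0.24 for the lysosomal genes, 2.09 for macrophage and monocyte markers and -0.77 for T cell markers.

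Markers of other cell types differed between the same arrays. The backgrounds over all measured genes were again 7.15% higher and 4.45% lower. Of 20 macrophage and monocyte markers named, 9 were measured on both arrays, 7 of them at least 2-fold higher and none lower, with a median of 2.09. Another 6 reached the floor in the KO only and 5 on neither array: Cd163, Itgam, Marco, Mertk and Retnla. The summed signal of all 20 was 8756.4 in the KO and 1643.9 in WT, and Chil3 (3.84), Lyz2 (3.45), Arg1 (3.25) and Clec4n (2.79) led the list. The WT signal of Chil3, 78.0, lay just above the floor of 69.2. The C1q genes, expressed by tissue macrophages and named after their values were seen, read between 68.1 and 146.2 in the KO and were below the floor in WT.

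Among 8 measured B cell markers 3 were at least 2-fold higher and none lower (median 0.96), led by Blnk (2.46), Cd79b (1.28), Blk (1.08) and Ebf1, which was just under 2-fold. The summed signal of all 9 named was 34660.1 in the KO and 17158.3 in WT, and Pax5 was below the floor on both arrays. Of 7 plasma cell markers 5 were at least 2-fold higher and none lower (median 1.53), and the sum over all 8 named was 111080 in the KO and 47897.4 in WT. Sdc1 (3.70, with other probe sets from 0.79 to 2.45), Derl3 (2.31), Igha (2.04) and Mzb1 (1.53) led them. The WT signal of Sdc1, 76.9, lay just above the floor of 69.2.

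T cell markers had a summed signal of 55081 in the KO and 100281 in WT, with 3 of 9 at least 2-fold lower, none higher and a median of -0.77. Cd4 (-1.59), Cd5 (-1.41) and Cd28 (-1.03) were the lower ones, and Zap70 was at -0.98. Markers of natural killer and CD8 T cells had 5 of 7 at least 2-fold lower, none higher and a median of -1.19, with sums over all 8 named of 10293 in the KO and 32711 in WT. Klrd1 (-2.09), Nkg7 (-1.77), Gzma (-1.64) and Cd8a (-1.19) led them, and Ncr1 reached the floor on neither array. Cd8a was past 2-fold only in its brightest probe set, since the others ran from -0.41 to 0.40. The part of these cell type markers in the values of Ctsh, Ctsz, Gusb, Gla, Grn, Cd68 and Ctsw was not tested.

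Other myeloid lists were sparse. Of 8 dendritic cell markers, 3 were measured on both arrays and none was past 2-fold, with Batf3 at 0.88, Itgax at 0.06 and Ccl22 at 0.00, and sums of 970.9 in the KO and 684.5 in WT. Of 8 neutrophil markers, Mmp8 (1.72) alone was measured on both, and the sums were 546.4 in the KO and 272.0 in WT. Of 7 osteoclast markers, Acp5 (-0.94) and Nfatc1 (-0.79, with others from -0.64 to 0.29) were measured on both, Calcr, Mmp9, Ocstamp and Oscar were below the floor on both arrays, and the sums were 3190.2 in the KO and 6095.0 in WT. Of 8 mast cell, basophil and eosinophil markers, Cpa3 (0.56) alone was measured on both, with sums of 292.7 in the KO and 210.0 in WT.

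**Figure D5:**
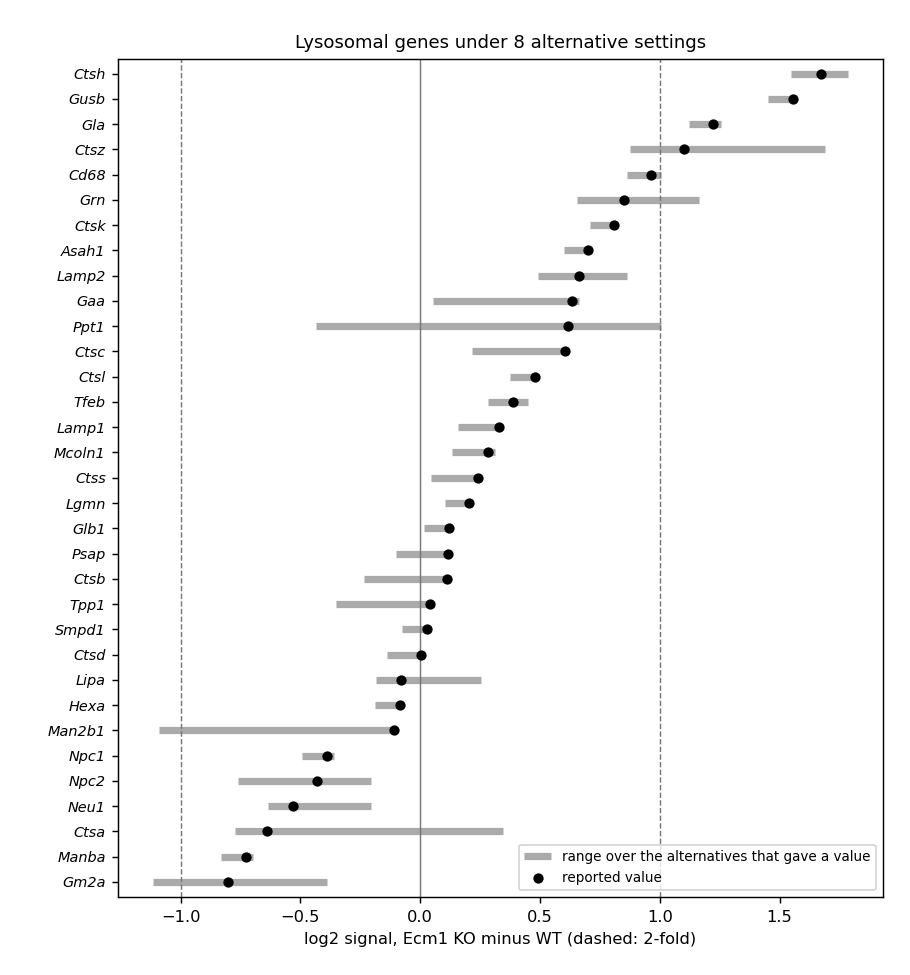
Reported log2 difference, Ecm1 KO minus WT, of each of the 33 lysosomal genes (black point) and its range over the alternative settings that gave it a value (grey bar), with 2-fold marked by dashed lines. Ctsh, Gusb and Gla stay right of 2-fold over their whole range, and the bars of 8 genes cross 0.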

How the data were processed

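Transcripts were measured in Th2 cells of Ecm1 KO and wild-type mice, 1 array each, from 3 µg of total RNA by one-cycle biotin labelling, per the labels' protocols. The authors deposited linear signal intensities for 45101 probe sets. How these were summarised is not given in the sources here. Their trimmed mean, without the outer 2% at each end, was 500.0 on each array, so the deposited intensities carry a global scaling. Precision is limited by the number of arrays.

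Gene names came from the platform's annotation table: 34945 had 1 symbol, 932 several and 9160 none, and 64 were controls. All 33 members matched RefSeq by gene identifier. Signals below the array's median (65.5 in the KO, 69.2 in WT) were taken as below the floor. Where only 1 array reached the floor, the difference is a bound. Signals were taken to log2 and differences centred with Python 3.11.15, numpy 2.4.6 and pandas 2.3.3. The procedure was tested on simulated data. Members, gene lists, the 2-fold threshold and the alternatives were chosen with earlier results of these data known. All members are named, and of each related list the 4 measured genes with the largest difference.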

Additional observations from a re-analysis of the deposited data

How the results depend on the processing

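No paired analysis was possible because there was only 1 array of each genotype. The 8 alternatives were no centring, quantile normalization, loess with span 0.3, no floor, a floor at the 70th percentile, the mean over probe sets, leaving out _x_at and _s_at probe sets, and the second brightest probe set. The count of members at least 2-fold higher ran from 3 to 5, against backgrounds of 5.65% to 15.5% of all genes. With no floor the 4 of 33 members were a smaller share than the background of 15.5%. The median ran from 0.12 to 0.22, above the median of all genes under each alternative. At least 2-fold lower was 1 member with probe sets averaged (Gm2a) and 1 with the second brightest probe set (Man2b1), against 0 as reported. The backgrounds for these were 4.41% with probe sets averaged and 4.99% with the second brightest probe set. The count with 2 probe sets past 2-fold was 1 without _x_at and _s_at probe sets, since fewer probe sets remain. Of 246 member values under alternatives 233 moved by less than the SD between probe sets and 13 by more, and 8 members changed sign under at least 1 alternative: Ctsb, Ctsd, Ctsa, Tpp1, Smpd1, Lipa, Ppt1 and Psap. Of all genes past 2-fold, 61.6% were higher in the KO as reported and 49.0% without centring. The counts over all genes, 725 higher and 451 lower as reported, were 2818 and 2316 of 18193 with no floor, 416 and 285 of 7360 with the higher floor and 340 and 232 of 4651 with the second brightest probe set, where the number of genes tested also differs. Signals near the floor, as for Ctsk and for Chil3 and Sdc1 in WT, limit what can be said of dim genes.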
